A study of Homo sapiens with 6 samples.

Results

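Of the 2763 topologically associated domains (TADs) called on the 22 autosomes of control LNCaP cells, 569 were called again in CTCF-depleted cells with both of their edges in place. These are referred to as unchanged TADs. They were chosen by the TAD calls of both maps: a control TAD counted as unchanged if a single TAD of the CTCF siRNA list started within 40 kb of its start and ended within 40 kb of its end, 40 kb being the bin width of the maps and so the smallest shift that can be seen. They made up 20.6% (95% Wilson interval 19.1 to 22.1) of the autosomal control TADs and matched 24.7% (22.9 to 26.5) of the 2308 autosomal CTCF siRNA TADs, each pairing with a different one. Over all chromosomes the control list held 2864 TADs.

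The data are Hi-C contact maps of LNCaP, an androgen-sensitive line from a prostate cancer metastasis. Control cells received a non-targeting siRNA pool and depleted cells an siRNA pool against CTCF, both at 20 nM, with a second transfection after the cells were split and collection at 144 h. Control siRNA comprised 2 libraries (Rep1 and Rep2) and CTCF siRNA 4, whose titles (Rep1, Rep2, Rep1.1 and Rep2.1) carry only 2 replicate numbers, but each condition was pooled into 1 map and 1 TAD list, so no value below has a replicate and no difference between the conditions could be tested. The level of CTCF itself is not part of these data, siRNA lowers a protein without removing it, and the rearranged chromosome copies of a cancer line are read here against the reference genome.

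A TAD is a stretch of chromosome whose parts meet each other more often than they meet the neighbouring stretches. In the loop extrusion model, cohesin reels in chromatin until it is halted by CTCF bound in a given orientation, so that many TAD edges hold CTCF sites facing each other across the domain. Edges are also known to lie at active gene starts and at transitions between chromatin types, and these do not require CTCF in the same way. Hi-C ligates DNA ends that lie together in the nucleus and counts the joined fragments as read pairs.

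Contact values were examined as read-pair counts over the number expected from the chromosome and the distance between the bins. The control map held 13273390 autosomal read pairs within chromosomes and the CTCF siRNA map 55010526, so counting error was dominated by the control map. The files hold no contact below position 9400001 of any chromosome, and 42 unchanged TADs end before it. Contacts within the TAD could be read for 501 of the 569 unchanged TADs, insulation at both edges for 464, at the start for 483 and at the end for 477. A second property of the maps touches every contact value: mean coverage of the GC-richest 10% of bins was 1.28 times that of the GC-poorest 10% in control siRNA but 4.19 times in CTCF siRNA. Values are therefore also given after balancing, an iterative scaling that gives every usable bin the same total.

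Sequence at the edges is shown first. The unchanged TADs had 985 distinct edges, because neighbours can share one, and the letters AGGGGGCGC, the core of the CTCF motif, were searched on both strands in the 3 bins (120 kb) centred on each edge. Of the 569 unchanged TADs, 31 (5.45%, 3.86 to 7.63) had a match on the plus strand at the start and one on the minus strand at the end, that is facing each other across the TAD (other control TADs 78 of 2194, 3.56%), and 27 (4.75%) had the reverse arrangement (other control TADs 68, 3.10%). The sequences below are from 3 TADs of the facing kind with a low mean insulation value of both edges in control and at least 50 contacts expected across each edge. They are 30 bases of hg19 read in the direction of the motif, so the end sequences are on the minus strand, with the matched letters in capitals.
ACKR3 TAD start, chr2:237088445-237088474, plus: gagcggagcggAGGGGGCGCctcccacctt
ACKR3 TAD end, chr2:237981155-237981184, minus: tctttcccaccAGGGGGCGCtgtggcacca
PARL TAD start, chr3:183543463-183543492, plus: ggcgtcccgggAGGGGGCGCactcggcggc
PARL TAD end, chr3:184097580-184097609, minus: ggggagggaccAGGGGGCGCgaagaggggg
SSRP1 TAD start, chr11:57087980-57088009, plus: gtgcaaagggaAGGGGGCGCttgctgccac
SSRP1 TAD end, chr11:57468648-57468677, minus: taacacaagtcAGGGGGCGCtggttagatc

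Both matches of the ACKR3 TAD lie outside protein-coding genes, those of the PARL TAD in introns (at the end, of THPO), and those of the SSRP1 TAD in a coding exon of TNKS1BP1 and in a non-coding exon stretch of ZDHHC5. The ACKR3 TAD (chr2:237100001-237980000), named here for the atypical chemokine receptor it holds beside ASB18 and IQCA1, had its start match 11.5 kb and its end match 1.17 kb from the called edges. These distances were 36.5 and 37.6 kb in the PARL TAD and 28.0 and 48.7 kb in the SSRP1 TAD. The insulation value of the ACKR3 TAD, defined below, went from -2.38 to -0.64 at the end and from -0.77 to -0.56 at the start. In the PARL TAD (chr3:183580001-184060000), which also holds the transporter gene ABCC5 and the serotonin receptor genes HTR3C, HTR3D and HTR3E, the start stayed at -1.01 in both maps and the end went from -1.77 to -1.10. The SSRP1 TAD (chr11:57060001-57420000) went from -1.50 to -0.95 at the start and from -1.02 to -0.87 at the end. A match of letters is not evidence of a bound site.

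Across all edges of unchanged TADs, 387 of 1138 windows held the core motif (34.0%, 31.3 to 36.8), against 1158 of 4388 windows at the edges of the other control TADs (26.4%) and 13532 of all 66581 such windows of the autosomes (20.3%). Windows were counted for each TAD. An edge shared by neighbours counts for both, also where only 1 of them was unchanged, so the groups of unchanged and other edges overlap. The windows differed in base composition as well, with a median GC content of 42.5% at unchanged edges, 40.9% at other edges and 39.9% over all windows. When the windows of distinct edges were split into 5 GC classes holding equal numbers of autosomal windows, the share with a match in the highest class was 60.7% at unchanged edges (190 of 313), 55.5% at other edges and 50.6% over all windows. In the middle class it was 15.6% (32 of 205), 19.3% and 14.4%, so the order of the groups was not the same in every class. On the strand of the matches, within 60 kb to the left of the distinct unchanged edges 152 matches were on the minus strand and 104 on the plus strand, and within 60 kb to the right 134 were minus and 141 plus. At the edges of other control TADs the left side had 336 minus and 301 plus matches. The median change in insulation was 0.26 (95% interval of the median 0.21 to 0.33, 311 edges) where the window held a match and 0.36 (0.32 to 0.40, 649 edges) where it did not, at control values of -1.06 and -1.08. Matches went with GC content, from 0 of 48 unchanged windows in the lowest class to 190 of 313 in the highest. The part of GC content in this difference was not tested.

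The edge windows of the unchanged TADs held gene starts more often than those of the others, but gene starts were also denser away from these edges. A protein-coding gene started in 876 of their 1138 edge windows (77.0%, 74.4 to 79.3), against 2860 of 4388 windows at other control TADs (65.2%, 63.8 to 66.6). These windows too were counted for each TAD. Shared edges therefore count more than once and in both groups, while the intervals treat all windows as separate. Windows with a gene start had a median insulation value of -1.08 in control siRNA and -0.75 in CTCF siRNA, and windows without one went from -1.03 to -0.51. The change was 0.29 (0.25 to 0.34) with a gene start and 0.47 (0.37 to 0.51) without. All of these windows belong to the same pair of maps, and the part of GC content in the difference was not tested.

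Most unchanged edges had not moved at all. Both edges lay at the same position in 254 unchanged TADs (44.6%), 1 edge had shifted by 40 kb in 261 (45.9%), and both had shifted by 40 kb in 54 (9.49%). Of the starts, 107 were earlier and 84 later in CTCF siRNA, and of the ends 67 were earlier and 111 later, so 179 TADs were longer by the calls and 114 shorter. Just outside the limit, 131 further control TADs had a larger shift of 80 kb and 110 a larger shift of 120 kb. Of the remaining control TADs as a whole, 106 kept both edges but as edges of different CTCF siRNA TADs, 1372 kept 1 edge and 716 kept none.

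Unchanged TADs were smaller than the pooled rest but not than its largest class. Their median length was 680 kb (640 to 720), with quartiles of 440 and 1000 kb, against 760 kb (720 to 760) for the other control TADs, a difference of -80 kb that was -40 kb among TADs of at most 3 Mb. The median was also 680 kb (680 to 720) in TADs that kept 1 edge, and it was 800 kb in those that kept none and 1160 kb in those whose edges were kept by different TADs. The unchanged TADs covered 471.2 Mb or 18.9% of the length in control TADs. In 4 size classes the share unchanged was 23.9% (20.8 to 27.2) among TADs of 160 to 480 kb, 22.6% and 20.3% in the next classes, and 15.6% (13.1 to 18.5) among those of 1160 to 5720 kb. The longest, 5120 kb, held only the RNA-binding protein gene CELF4 and the lipid kinase gene PIK3C3 among protein-coding starts (chr18:34420001-39540000). It had the same start and end in both lists.

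Unchanged TADs were richer in GC and genes than the pooled rest. Median GC content was 42.7% (42.2 to 43.1) in unchanged TADs and 40.6% (40.3 to 40.8) in the others, and gene density was 7.14 (6.25 to 7.95) and 5.17 (5.00 to 5.56) protein-coding starts per Mb. Both were higher still in the 106 TADs whose edges were kept by different TADs, at 44.7% (43.6 to 45.7) and 10.97 starts per Mb. Control TADs were also ranked by GC content into 5 classes of equal number. In the GC-poorest class 44 of 553 were unchanged (7.96%, 5.98 to 10.5) and in the next class 14.3% (11.6 to 17.5), whereas in the upper 3 classes the share was 26.2%, 26.6% and 27.8% (24.3 to 31.7). In 4 classes of gene density it went from 13.7% (11.4 to 16.5) in the lowest to 25.2% (22.1 to 28.5) in the highest. Only 11 unchanged TADs held no protein-coding gene start (1.93%, against 6.84% of the others), the longest being the 1600 kb TAD at chr3:175060001-176660000. Within GC classes the gene densities of unchanged and other TADs were close, at 1.71 and 1.47 starts per Mb in the lowest class and 15.7 and 15.6 in the highest. An unchanged TAD requires a call in the CTCF siRNA map, whose coverage differs more by GC content than that of the control map. The part of this in the shares above was not tested.

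**Figure D1:**
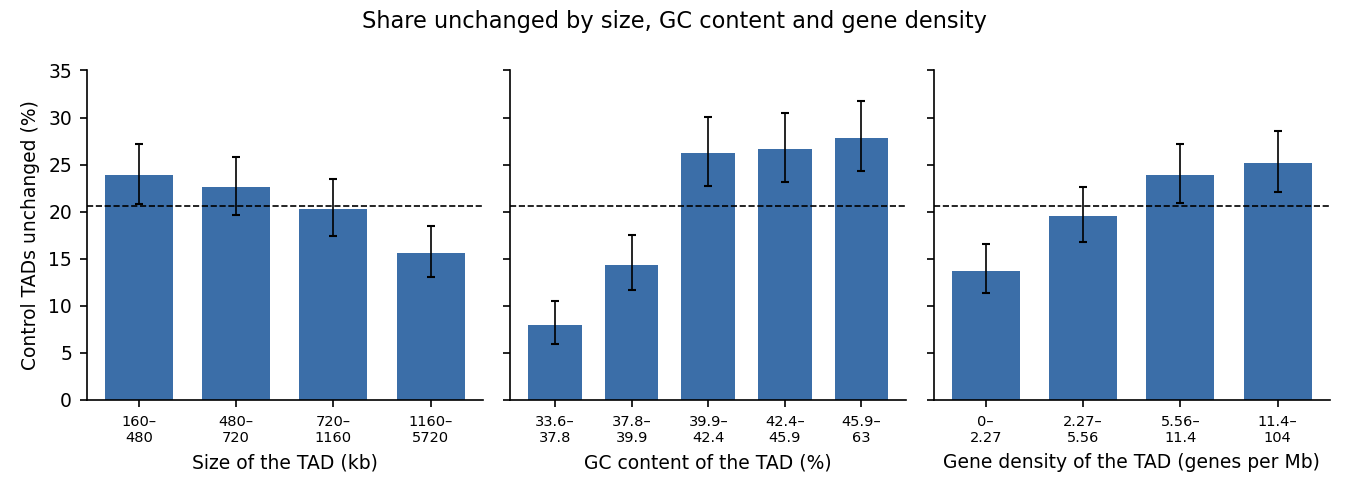
Share of control TADs that were unchanged (vertical axis, %) by the size, GC content and protein-coding gene density of the TAD, with the range of each class under its bar. Bars are shares, error bars 95% Wilson intervals over TADs and the dashed line the share over all autosomes (20.6%); the GC-poorest class stands lowest at 7.96%.

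Chromosomes differed in how many of their TADs stayed in place. Chromosome 17 had the highest share, 36 of 96 (37.5%, 28.5 to 47.5), followed by chromosome 19 with 18 of 56 (32.1%, 21.4 to 45.2). The lowest was chromosome 12 with 20 of 147 (13.6%, 8.98 to 20.1), and chromosome 8 had 22 of 142 (15.5%). The intervals of neighbours in this order overlapped, while that of chromosome 17 lay above that of chromosome 12. Across the 22 autosomes the share went with the GC content of the chromosome (Spearman's rho 0.58, Pearson's r 0.62, given as a description). Within chromosomes, unchanged TADs had the higher median GC content on 18 of 22 and the higher median gene density on 18 of 22. The number of calls differed as well. Chromosome 4 had 173 control and 112 CTCF siRNA TADs, chromosome 17 had 96 and 93, and chromosome 19 had 56 and 68. The part of the number of calls and of coverage by GC content in the shares of chromosomes was not tested.

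**Figure D2:**
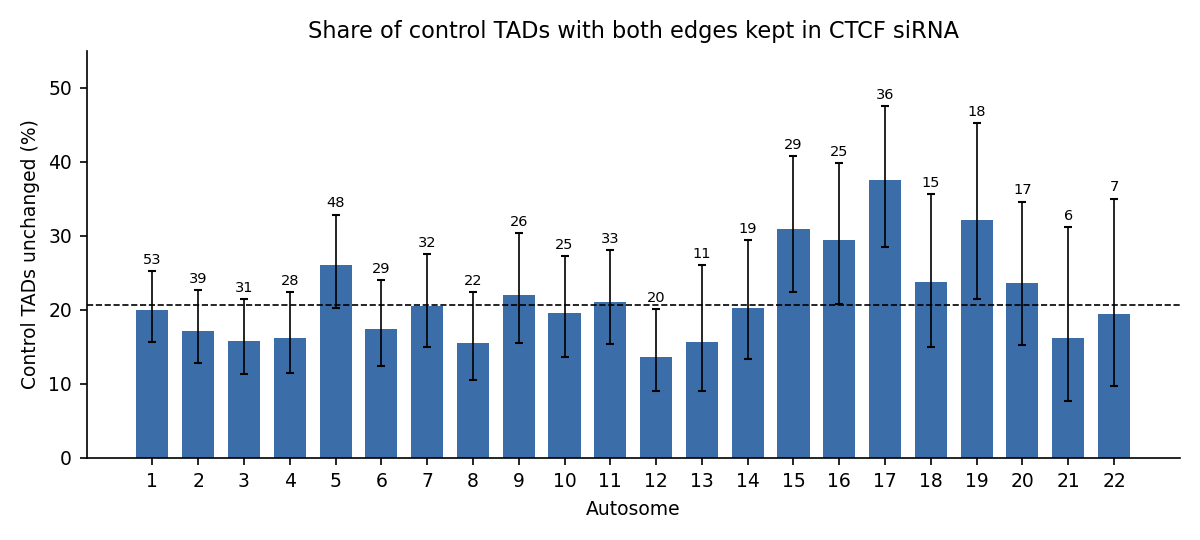
Share of control TADs that were unchanged on each autosome (vertical axis, %), with 95% Wilson intervals over TADs and the number of unchanged TADs above each bar. The dashed line is the share over all autosomes (20.6%); chromosome 17 is highest (37.5%) and chromosome 12 lowest (13.6%).

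Unchanged TADs were also read in runs, whose members follow each other in order but need not abut. The run lengths expected from the share unchanged were not computed. Taking control TADs in order along a chromosome, 224 stood alone, 192 came in 96 pairs, 75 in 25 runs of 3, 48 in 12 runs of 4 and 30 in 6 runs of 5, the longest found. A neighbouring pair often shares an edge, so its members are not independent: 728 of 1127 sides of unchanged TADs abutted the next TAD (64.6%) and 2666 of 4355 sides of the others (61.2%). The run on chromosome 5 (chr5:110420001-114940000, 4520 kb) began with a TAD holding WDR36, CAMK4, STARD4 and NREP, went on to the TAD of EPB41L4A, SRP19, REEP5 and the tumour suppressor gene APC, and ended with CCDC112, FEM1C and TICAM2. That on chromosome 16 (chr16:23580001-27460000, 3880 kb) ran from the TAD of NDUFAB1, PALB2 and the mitotic kinase gene PLK1 to that of the interleukin receptor genes IL4R and IL21R. The chromosome 17 run (chr17:43220001-46100000) passed from HEXIM1 over the TAD of MAPT and KANSL1 and that of WNT3 and WNT9B to the TAD of KPNB1 and TBX21. The chromosome 20 run (chr20:21580001-26300000) held the transcription factor genes PAX1 and FOXA2 in TADs of their own, followed by the TAD of THBD and CD93 and that of the cystatin genes CST8 and CST9. The other two, on chromosomes 7 and 11, covered 13080 and 7120 kb, each with a centromere between its members, and held the zinc finger genes ZNF479 and ZNF716 and the olfactory receptor genes described next.

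The genes in unchanged TADs numbered 3820 of the 16830 protein-coding starts in autosomal control TADs (22.7%), and gene families were read against that share. Genes of a family lie side by side, so a family counts a few TADs many times and its genes are not independent. Of the protocadherin genes, which encode the cell adhesion proteins that give neurons their identity, 55 of 62 lay in unchanged TADs, but 53 of these were in a single TAD. Of the replication-dependent histone genes, 29 of 60 (48.3%) did so, in 3 TADs, of which the one at chr6:26100001-27060000 held 20 and its neighbour at chr6:27100001-27780000 held 8. Zinc finger genes with ZNF symbols counted 126 of 384 (32.8%) in 36 TADs, with 35 in the 4680 kb TAD at chr19:19900001-24580000 from ZNF506 to ZNF254. Olfactory receptor genes counted 107 of 349 (30.7%) in 10 TADs, with 47 in the TAD at chr11:54780001-56580000. Several lists of genes scattered over the genome lay near the share of all genes: 18 of 68 ribosomal protein genes (26.5%), 10 of 44 proteasome genes (22.7%) and 68 of 335 solute carrier genes (20.3%). Collagen genes were lower, at 4 of 36 (11.1%, 4.41 to 25.3), in 4 TADs (COL8A2, COL14A1, COL22A1 and COL15A1). None of the 55 keratin genes and none of the 39 HOX genes, each packed in a few clusters, lay in an unchanged TAD.

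Of the genes linked to androgen response or prostate identity, 6 of 24 in autosomal control TADs lay in unchanged TADs, in 4 TADs. The 95% interval of this share, 12.0 to 44.9%, includes the 22.7% of all protein-coding genes, so the list did not stand out. The genes below are therefore given as single cases. KLK3, which encodes prostate-specific antigen, and its neighbours KLK2 and KLK4 were in the unchanged TAD with most protein-coding starts, 62 (chr19:50620001-52300000). Its contacts within were 1.36 times the expected number in control (95% Poisson interval 1.32 to 1.39) and 1.41 times in CTCF siRNA (1.40 to 1.43), its insulation went from -0.92 to -1.04 at the start and from -1.21 to -0.53 at the end. TMPRSS2, the androgen-driven protease gene that is fused to ERG in many prostate cancers, shared a 440 kb TAD with RIPK4 (chr21:42820001-43260000), and its edges were weak in both maps, at -0.54 and -0.28 for the start and -0.49 and -0.45 for the end. ERG itself lay in a TAD that kept 1 edge. The TAD of GATA2, a pioneer-type factor of the androgen receptor program, with SEC61A1, MGLL and RUVBL1 (chr3:127740001-128340000) had the same calls in both lists although its end went from -1.77 to -0.76. NDRG1 lay in an unchanged TAD with TG, SLA and CCN4 (chr8:133820001-134460000). FKBP5, FOXA1, HOXB13 and the STEAP genes lay in TADs that kept 1 edge. Of the genes of cohesin and loop factors, SMC3, a core cohesin subunit, and MAU2, part of the cohesin loader, were in unchanged TADs, 2 of 11 (18.2%, 5.14 to 47.7). CTCF itself lay in a TAD that kept 1 edge, and RAD21, NIPBL, WAPL and YY1 in TADs that kept none.

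Although the calls stayed, the edges became weaker. The insulation value of an edge is the log2 of contacts over expected across it, within 400 kb on either side, divided by contacts over expected within those flanks, so a strong edge is far below 0. Both maps were read at the edge called in control siRNA, also where the CTCF siRNA call had shifted. The same maps gave the calls that chose these TADs, so the values describe them and were not tested. The mean of both edges had a median of -1.08 (-1.13 to -1.04, 464 TADs) in control siRNA and -0.73 (-0.77 to -0.69) in CTCF siRNA. All 464 were below 0 in both maps, as were all 2355 control TADs measured in control siRNA, while 185 of those 2355 (7.86%) were above 0 in CTCF siRNA. The change had a median of 0.35 (0.31 to 0.38, quartiles 0.15 and 0.54) and was above 0 in 406 TADs (87.5%), against 94.7% of all control TADs measured. With balanced counts it was 0.32 (0.29 to 0.34) and above 0 in 393 (84.7%), against 93.5%. Both edges rose in 301 TADs, 1 edge in 142 and neither in 21, a split that was not counted over all control TADs. Taken singly, 383 of 483 unchanged starts and 384 of 477 ends rose. Over all control TADs 2117 of 2406 starts and 2142 of 2417 ends did, which are larger shares. The rise exceeded 1.96 counting SD in 346 TADs (74.6%), against 87.4% of all control TADs, and a fall did so in 24 (5.17%), against 1.7%. Starts and ends moved alike, by medians of 0.32 and 0.34, and the median was above 0 on every autosome.

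The rise was smaller than in the other control TADs, where the median was 0.53 (0.52 to 0.55), from -0.92 to -0.36. It was 0.50 (0.48 to 0.52) in TADs that kept 1 edge and 0.61 (0.57 to 0.63) in those that kept none, but 0.37 (0.28 to 0.43) in the TADs whose edges were both kept by different TADs. A rise over 0.5 was found in 139 of the 464 unchanged TADs, against 49.4% of all control TADs measured, a difference that the choice of members itself uses. Unchanged TADs with both edges at the same position rose by 0.36 (0.32 to 0.42) and those with a shifted edge by 0.33 (0.30 to 0.37). By GC content the rise in unchanged TADs went from 0.56 in the lowest class to 0.19 in the highest, and in the others from 0.64 to 0.41. Along the chromosome the weakening was local: at the starts the median value went from -1.10 to -0.72, and 400 kb upstream it was 0.14 in control siRNA and 0.18 in CTCF siRNA.

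**Figure D3:**
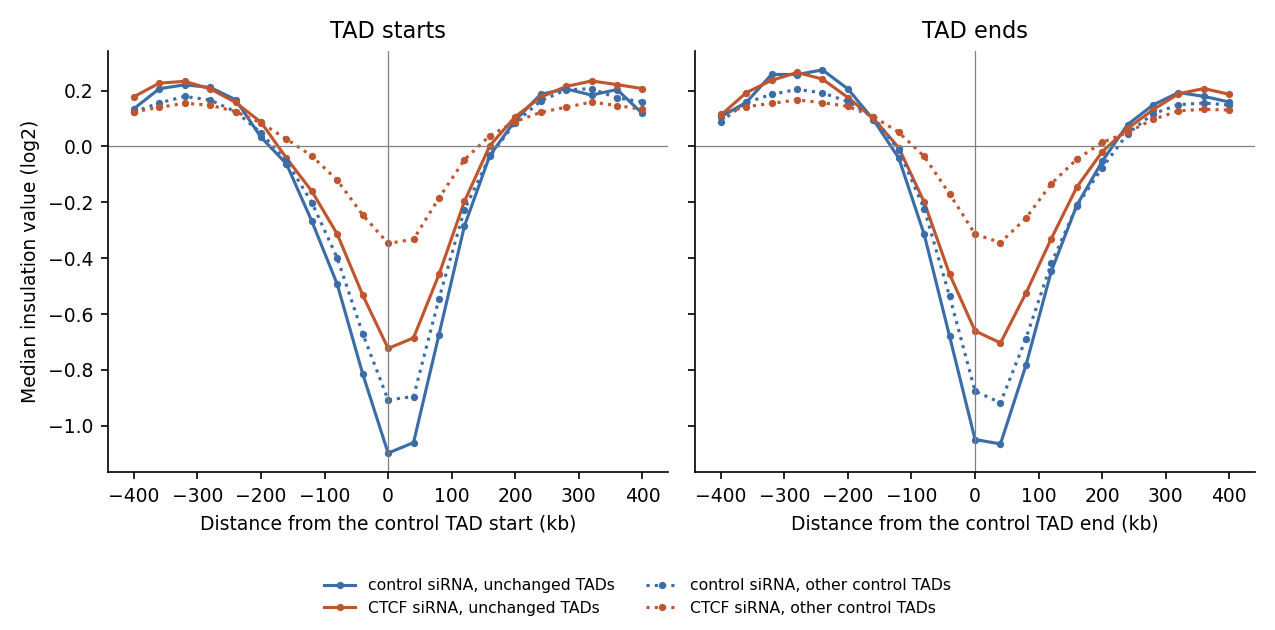
Median insulation value (vertical axis, log2, lower is stronger) against distance from the start (left) and end (right) of control TADs in kb, in control siRNA (blue) and CTCF siRNA (red), for unchanged TADs (solid) and other control TADs (dotted). At unchanged starts the minimum goes from -1.10 to -0.72, and at the other starts from -0.91 to -0.35. An edge shared by an unchanged and another TAD counts in both groups.

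Among unchanged TADs with at least 50 contacts expected across each edge, the lowest means of both edges in control siRNA were those of 3 gene-dense TADs. The lowest was that of the protocadherin TAD (chr5:140100001-140980000, 880 kb), which holds the PCDHA, PCDHB and PCDHG genes with SLC25A2 and TAF7. Its start had 82 contacts across where 492.4 were expected in control siRNA, a value of -2.51, and rose by 0.42 (counting SD 0.18) to -2.09 in CTCF siRNA. Its end, called 40 kb earlier in CTCF siRNA, went from -1.94 to -0.74 at the control position. Contacts of the TAD with the flanks on both sides together went from 0.38 to 0.98 of expected, while contacts within were 1.13 times expected in both maps. With balanced counts the log2 change to the flanks was 0.82 in place of 1.35, and contacts within went from 1.42 to 1.58 times expected. The next were the TAD of GAST, HAP1, JUP, P3H4, FKBP10 and KLHL10 (chr17:39860001-41380000), with 61 protein-coding starts, whose start went from -2.63 to -2.07 and whose end went the other way, from -1.73 to -2.65. In the TAD of CPSF4, PTCD1, ATP5MF, ZNF789 and ZKSCAN5 (chr7:99020001-99660000) both edges stayed close, -2.36 and -2.21 at the start and -1.70 and -1.56 at the end.

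**Figure D4:**
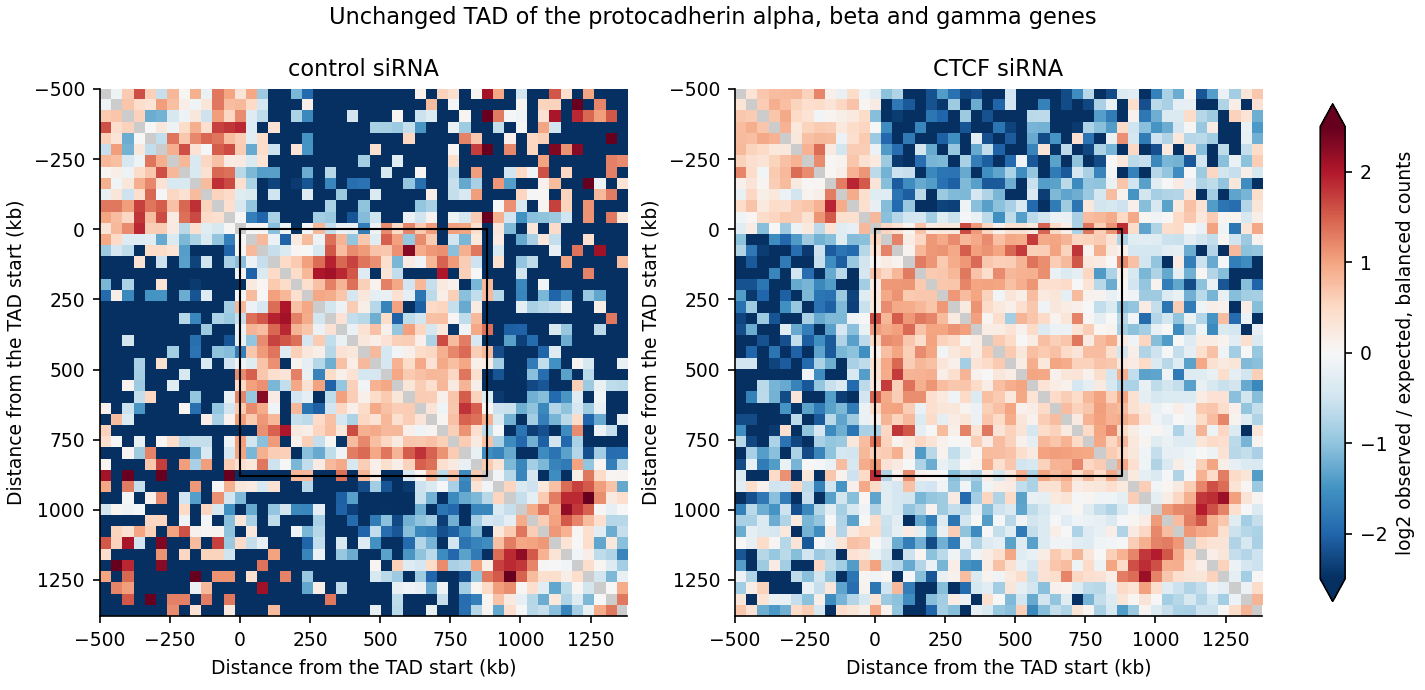
Log2 of observed over expected contacts (colour, balanced counts, 40 kb bins) against distance from the TAD start in kb on both axes, for the protocadherin TAD (black square) and the 480 kb on either side, in control siRNA (left) and CTCF siRNA (right); grey marks pairs not used and dark blue also stands for pairs with no contact. The lower right border, at the end of the TAD, fills with contacts in CTCF siRNA, where the end's insulation value by read-pair counts goes from -1.94 to -0.74. The maps differ in depth (13273390 read pairs in control siRNA, 55010526 in CTCF siRNA) and were not thinned, so empty pairs cannot be compared between them.

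The largest rises at the edges of unchanged TADs were as follows. In the TAD of EFNB2, an ephrin ligand gene, and ARGLU1 (chr13:107180001-107820000), with identical calls in both lists, the start went from -1.61 to -0.50 and the end from -2.17 to -0.53, a mean rise of 1.37 (counting SD 0.15). The TAD of TGFBRAP1, FHL2, NCK2 and UXS1 (chr2:105900001-107220000) rose by 1.28 (0.12), and that of LRATD2 (chr8:126700001-127820000) by 1.25 (0.10). Both edges of the TGFBRAP1 TAD and the start of the LRATD2 TAD were called 40 kb away in CTCF siRNA. The part of these shifts in the rises was not tested. Not all edges rose: 383 of 483 starts (79.3%) and 384 of 477 ends (80.5%) did, against 2117 of 2406 starts and 2142 of 2417 ends over all control TADs. The TAD of METTL9, OTOA, UQCRC2 and PDZD9 (chr16:21460001-22420000) fell by 0.63 (0.15), that of VPS13C, TLN2 and TPM1 (chr15:62140001-63380000) fell by 0.54 (0.08), and that of RNF181, USP39, SFTPB and GNLY (chr2:85820001-86340000) fell by 0.44 (0.08). In the last of these the start was level, at -1.36 and -1.41, and the end went from -1.44 to -2.27.

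A lower control value went with a larger rise. Over the 464 TADs the control value and the change had a Spearman's rho of -0.54, but the control value enters both, so this is a description of the same counts. The 2 edges of a TAD were nearly unrelated: rho was 0.07 between start and end in control siRNA and 0.03 between their changes. The values of control and CTCF siRNA had a rho of 0.56, so that TADs with strong edges in one map tended to have strong edges in the other.

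Contacts within the unchanged TADs gave no single direction. They had a median of 1.24 times expected (1.22 to 1.27, 501 TADs) in control siRNA and 1.28 (1.19 to 1.35) in CTCF siRNA, a median log2 change of 0.12 (0.08 to 0.17), above 0 in 309 TADs (61.7%, against 44.9% of all control TADs). With balanced counts the medians were 1.22 (1.20 to 1.25) and 1.19 (1.16 to 1.24), and the log2 change was -0.01 (-0.03 to 0.01), above 0 in 235 (46.9%, against 32.8%). Contacts went up by more than 1.25-fold in 168 unchanged TADs, against 23.4% of all control TADs measured, and down by as much in 106, against 37.2%. With balanced counts 44 went up, against 5.67% of all, and 66 down, against 25.7%. In the other control TADs the median log2 change was -0.16 (-0.20 to -0.12) with read-pair counts and -0.16 (-0.18 to -0.14) with balanced counts. This gap was not seen against the TADs whose edges were kept by different TADs, where the medians were 0.17 (0.09 to 0.37) and -0.009. The unchanged TADs are again the ones chosen on these maps, so the gap to the others was not tested. That gap was 0.28, and 0.069 as the mean over classes of GC content.

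The log2 change within unchanged TADs went with GC content, at a Spearman's rho of 0.74 with read-pair counts and 0.47 with balanced counts over the same 501 TADs and maps, whose coverage differs by GC content as given above. From the lowest to the highest GC class the median went from -0.76 to 0.46 with read-pair counts and from -0.21 to 0.07 with balanced counts. In the other control TADs the medians went from -0.89 to 0.38, and from -0.36 to 0.03 with balanced counts.

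**Figure D5:**
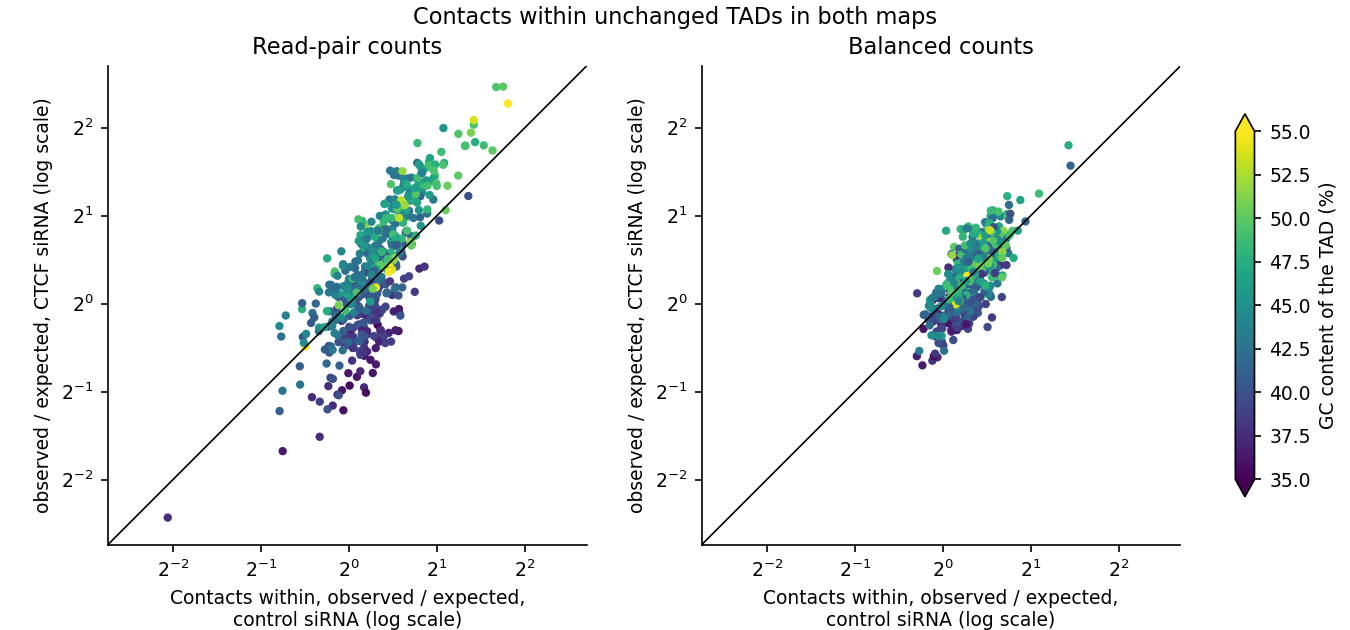
Contacts within each of 501 unchanged TADs over expected, in control siRNA (horizontal) and CTCF siRNA (vertical), both on log scales, with read-pair counts (left) and balanced counts (right). Each point is a TAD coloured by its GC content and the line marks equal values; the spread around the line follows GC content on the left (rho 0.74 with the log2 change) and less so on the right (rho 0.47).

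The named extremes by read-pair counts all changed less with balanced counts. Large rises by read-pair counts were in the TAD of TGOLN2, ELMOD3, RETSAT, CAPG and MAT2A (chr2:85540001-85820000) and in the TAD of CDKN2AIP, ING2, TRAPPC11 and STOX2 (chr4:184340001-185140000). The first had 525 contacts within in control siRNA, 1.72 times expected (1.57 to 1.87), and 4171 in CTCF siRNA, 3.54 times expected (3.43 to 3.65), a log2 change of 1.05, but the balanced change was 0.03. The second rose by 1.04, and by 0.13 with balanced counts. Its neighbour at chr4:185140001-185580000 rose by 0.96, and by 0.21 with balanced counts. GC content was 48.5% in the first of these TADs. It was 43.0% and 43.4% in those on chromosome 4, near the unchanged median of 42.7% over all autosomes. The expected number is taken per chromosome, however. On chromosome 4 the median GC content was 39.3% in unchanged and 38.4% in other control TADs, below both of these TADs. The largest falls were in AT-rich TADs, at -1.21 for the one holding GRIN3A, CYLC2 and SMC2 (chr9:104260001-106860000, GC content 35.7%), -1.18 for that of TERF2IP, KARS1 and CNTNAP4 (chr16:75660001-77220000) and -1.15 for that of the neural adhesion gene CNTN5 (chr11:96140001-98900000). With balanced counts these were -0.005, -0.03 and -0.27.

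Distance mattered for contacts within. For bins at most 200 kb apart the median log2 change was 0.14 with read-pair counts and 0.02 with balanced counts. For bins farther apart it was -0.03 and -0.16, from 1.56 to 1.47 times expected by read-pair counts. In the other control TADs the changes were -0.10 and -0.11 for near bins, and -0.36 and -0.32 for far ones. In TADs whose edges were kept by different TADs they were 0.18 and 0.02 for near bins, and 0.19 and -0.05 for far ones. At the corner of the TAD, where the first 3 bins meet the last 3, contacts were 2.16 times expected (2.03 to 2.34, 446 TADs) in control siRNA and 1.95 times (1.85 to 2.03) in CTCF siRNA. The change at the corner was -0.15 (-0.19 to -0.06), and -0.31 (-0.38 to -0.24) with balanced counts, and in the other control TADs it was -0.55 (-0.60 to -0.49) and -0.61. In TADs whose edges were kept by different TADs it was 0.12 (-0.02 to 0.39), and -0.17 (-0.46 to -0.08) with balanced counts, so the smaller loss was not particular to unchanged TADs.

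Contacts between the unchanged TADs and the sequence just outside them rose in most TADs. They had a median of 0.63 of expected (0.60 to 0.64, 479 TADs) in control siRNA and 0.82 (0.77 to 0.86) in CTCF siRNA, a log2 change of 0.44 (0.38 to 0.48) that was above 0 in 391 TADs. With balanced counts it was 0.25 (0.21 to 0.28), above 0 in 369. In the other control TADs the change was 0.33 (0.30 to 0.37), above 0 in 71.7%, and 0.28 (0.26 to 0.30) with balanced counts, above 0 in 82.3%, against 81.6% and 77.0% in the unchanged TADs. Set against each other in the same TAD, the change within was lower than the change to the flanks in 413 of 479 TADs, by a median of -0.30 (-0.33 to -0.27), and in 407 with balanced counts, by -0.26 (-0.29 to -0.24). The opposite held in 66 unchanged TADs and 140 of all 2417 control TADs measured (13.8% and 5.79%), and with balanced counts in 72 and 148. For the other control TADs the medians were -0.50 (-0.51 to -0.48) and -0.43 (-0.44 to -0.42), but for those whose edges were kept by different TADs they were -0.31 (-0.39 to -0.24) and -0.25, close to the unchanged TADs.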

How the data were processed

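LNCaP cells were profiled by Hi-C with BglII. Per the labels and the study's methods, the authors mapped reads to hg19 (Bowtie 1.1.0, SAMtools 1.2, Picard 1.121 and FastQC 0.11.2 are named in the submitters' processing notes), pooled the libraries of a condition and deposited a list of contact values between 40 kb bins and a list of TAD starts and ends. The deposited contact values are not whole: they are read-pair counts multiplied by a factor per position, the same on all chromosomes, between 9.4 and 48.12 Mb. Dividing by these factors gave whole counts for 100% (control siRNA) and 99.9998% (CTCF siRNA) of values tested, within 0.0101 plus 0.05% of the value (2.466% and 2.756% would be whole by chance), and contacts of a bin with itself, listed again, were counted once. In that range 121 of 968 positions hold no value. TAD edges lie at bin midpoints.

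Bins with under 10% of the median coverage of their chromosome in either map were left out, and a value needed 50% of its bin pairs. The expected number was the mean per chromosome and distance. Balancing used 60 iterations over distances up to 10.4 Mb. The corner was read in TADs of at least 8 bins. Intervals of medians are 95% binomial order-statistic intervals over TADs, which are not replicates; intervals of single TADs and counting SD cover counting error only, and read pairs are not proven independent molecules. Genes are from GENCODE 44 lifted to GRCh37, counted by their start; histone genes were found through older symbols in RefSeq. Python 3.11.15, numpy 2.4.6, pandas 2.3.3, scipy 1.17.1 and numba 0.67.0 were used, with matplotlib 3.10.9 for plots. The TAD classes, the recovered counts, contacts within and to the flanks, and insulation were tested on simulated data. The simulated maps had similar depth and no difference in coverage by GC content. Balancing and corner contacts were not tested in this way. The members, gene lists and rules were chosen with earlier results of these data known. Named TADs were the longest, shortest, most gene-rich and longest gene-free ones, the 3 largest changes each way within (at least 200 contacts expected) and at the edges (at least 50), the 3 lowest values in control, the longest runs, and those with a listed prostate or cohesin gene; some of these are not reported here. Other tolerances, scalings, flanks and motifs were tried as alternatives.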

Additional observations from a re-analysis of the deposited data

How the results depend on the processing

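Of 35 values recomputed under alternative settings for 11 results, 25 kept their direction and stayed within the 95% interval of the reported value or, for the number of TADs, within 1.5 times it (700 with edges within 80 kb, 810 within 120 kb and 561 among TADs of at most 3 Mb, against 569). Requiring identical positions left 254 unchanged TADs, and among TADs of at most 3 Mb the size difference to the others was -40 kb in place of -80. The median log2 change of contacts within, 0.12, became -0.015 with balanced counts and -0.027 for bins over 200 kb apart, and 0.22 with the expected number taken over all autosomes. Its difference to the other control TADs, 0.28, became 0.14 with balanced counts and 0.069 within classes of GC content, and the difference in insulation change, -0.18, became -0.13 within classes of GC content. The share of edge windows with the motif, 34.0%, became 26.4% in windows of 2 bins and 94.6% with the looser letters AGNNGGCGC, which 85.1% of all windows hold. The rise in insulation stayed between 0.32 and 0.37 under all settings tried. Both differences to the other control TADs with their alternatives, the split at 200 kb and the share among TADs with contact values were added after the data were seen. No paired analysis was possible because control siRNA and CTCF siRNA each have a single map made from all their libraries, so leaving out a replicate could not be done either. Depth limits single TADs most in control siRNA, where contacts within had a median of 1513 (93 to 15952), against 7102 (365 to 56892) in CTCF siRNA.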
